A study of Bombyx mori with 12 samples.

Results

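The cuticular protein genes BmorCPR1 to BmorCPR56 are the RR-1 members of the silkworm's largest family of cuticle proteins. They were taken as every probe on the array whose sequence name, with any coding-sequence suffix removed, was BmorCPR followed by a number from 1 to 56. That gave 56 genes with 112 probes, 2 for each gene, out of 32093 sequence names and 42340 probes with a value on every array. No measured value was used to choose them.

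Insect cuticle is a composite of chitin fibres and proteins that the epidermis secretes. CPR proteins carry the Rebers-Riddiford consensus, a conserved stretch that binds chitin. Proteins with the RR-1 form are typical of soft, flexible cuticle such as that of the larval body, and those with the RR-2 form of hard cuticle. Epidermal cells make cuticle proteins in waves set by ecdysteroids and juvenile hormone, so different members are known from different days of an instar and from larval or pupal cuticle. Cuticle also lines the tracheae, the foregut and hindgut, and the ducts of ectodermal glands.

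Transcript levels were measured in Bombyx mori larvae of the commercial hybrid Kinsyu x Showa, reared on mulberry leaves and carrying no named allele, with no agent named in any group. On day 2 of the 4th instar, 7 tissues were sampled on 1 array each: prothoracic gland, which makes ecdysteroids, brain, fat body, midgut, epidermis, Malpighian tubule, which is the excretory organ, and salivary gland. The complex of corpora cardiaca and corpora allata (CC-CA), the gland pair behind the brain that makes juvenile hormone, was sampled at the same age on 2 arrays from independent experiments. A further CC-CA array came from 5th instar larvae on day 4, and the gonad arrays, 1 of testis and 1 of ovary, from 5th instar larvae on day 10, 3 days past wandering onset. How many larvae were pooled for a sample is not stated in the labels.

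A level here is the log2 of the processed signal minus the 75th percentile of its array, so 0 is the brightness that 75% of the spots on that array stay below, with differences of 1 standing for a change by a factor of 2. A gene is called detected in a group where its brighter probe passed the scanner software's limit of being well above background on each array taken. A probe below that limit has only an upper bound there, and folds against it are given as "at least". Levels of different genes come from different probes and are not compared with each other.

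The 75th percentile of the processed signal was lowest in fat body, at 1402, and highest in ovary, at 5827. Across the arrays 60.4% to 78.6% of the spots were well above background. No spot of a BmorCPR1 to 56 probe was marked saturated or an outlier. The replicate CC-CA arrays differed by a median of 0.25 on the log2 scale over the genes of this family detected on both, and by 2.51 at most, in BmorCPR19. Markers of the dissected organs were highest where the labels place them: the juvenile hormone methyltransferase BmJHAMT in the 4th instar CC-CA, adipokinetic hormones 1 and 2 and pburs in the 5th instar CC-CA, corazonin, eclosion hormone and SIFamide in brain, the diuretic hormone receptor in Malpighian tubule and the adipokinetic hormone receptor in fat body. The CC-CA arrays also gave signal for names that were high in epidermis. Of 526 non-cuticular sequence names that were at least 8-fold higher in epidermis than in each of the 8 other non-CC-CA tissues, 397 and 420 were detected on the 4th instar CC-CA arrays, 382 on the 5th instar CC-CA array and 160 to 330 on the other arrays. Their summed linear level was 17752 in epidermis, 1745 and 1786 in the 4th instar CC-CA, 756 in the 5th instar CC-CA and 59.1 to 252 elsewhere. The rule left CC-CA out, so the low sums elsewhere follow from the choice of names. Names that CC-CA cells express themselves could also pass it, and the origin of their signal in CC-CA was not tested.

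Epidermis held the most of these genes, and Malpighian tubule the fewest. In epidermis 35 of the 56 were detected (62.5%, against 66.4% of all sequence names there). The count was 26 in the CC-CA of each stage (46.4%, against 65.3% of all names in the 4th instar and 71.6% in the 5th), 25 in salivary gland (44.6%, against 61.5%), and 23 in testis and in ovary (41.1%, against 77.5% and 73.1%). Prothoracic gland had 21 (37.5%, against 60.7%), brain 15 (26.8%, against 63.9%), fat body 14 (25.0%, against 57.5%), midgut 13 (23.2%, against 63.0%) and Malpighian tubule 10 (17.9%, against 63.9%). The share in epidermis was thus near that of all names, while in each of the other 10 groups it was lower than that of all names. How far epidermis RNA on other arrays contributes to the detections outside epidermis was not tested.

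**Figure D1:**
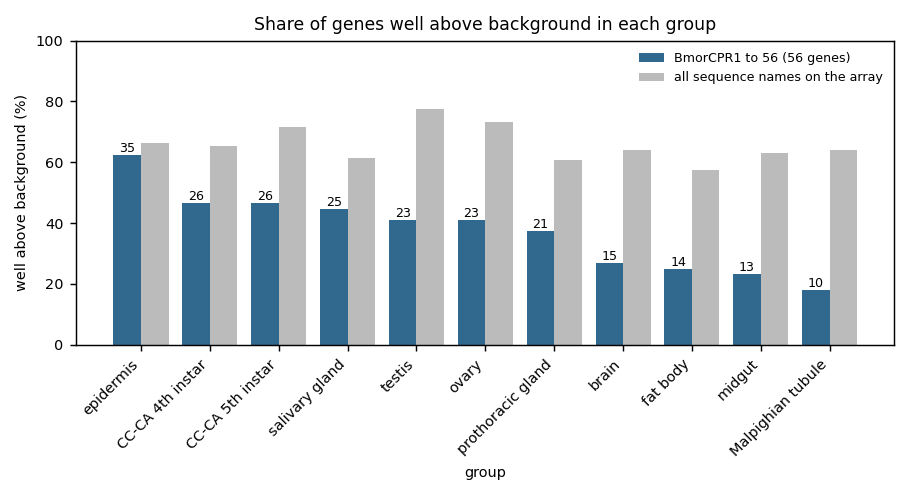
Share of the 56 BmorCPR1 to 56 genes (dark bars, count above each) and of all 32093 sequence names (grey bars) that were well above background in each of the 11 groups, in percent. The bars for this gene family fall from 62.5% in epidermis to 17.9% in Malpighian tubule, while the grey bars stay between 57.5% and 77.5%.

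By gene, 45 of the 56 were detected in at least 1 group (80.4%, against 89.2% of all sequence names), 31 of them in epidermis and elsewhere, 4 in epidermis only and 10 outside epidermis only. Over all names, 28621 were detected in at least 1 group and 21319 in epidermis, so detection outside epidermis only was not particular to this family. How many of all names were detected in epidermis only was not counted. Detection ranged from a single group for 9 genes to all 11 groups for 6 genes, a reach that 48.9% of all names had. Those 6 were BmorCPR4, 34, 42, 44, 46 and 51. By the brighter probe, the 4 detected in epidermis only were BmorCPR31, 35, 39 and 40. For BmorCPR35 this does not hold up: the brighter probe was at -4.94 in epidermis and, on 1 of the 2 replicate CC-CA arrays, at -3.37, while the second probe was not above background in epidermis and was at -4.40 and -5.47 in the 4th instar CC-CA. The 10 detected elsewhere but not in epidermis, by the brighter probe, were BmorCPR7, 8, 14, 18, 22, 25, 26, 48, 49 and 55. The second probe of BmorCPR22 was above background in epidermis, at -5.77.

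The 11 genes detected in no group were BmorCPR9, 11, 12, 13, 15, 16, 20, 24, 29, 47 and 52. Of these, BmorCPR11 was above background on 1 of the 2 replicate CC-CA arrays at -4.65 and not on the other. The second probe was above background for BmorCPR16 in Malpighian tubule and for BmorCPR24 in brain. For the other 8, neither probe was above background in any group.

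Epidermis was the group of highest level for 28 of the 45 detected genes (62.2%, against 7.92% of all sequence names detected). Salivary gland was highest for 6 (background 10.4%), ovary for 3 (8.66%), testis for 2 (18.0%), the 5th instar CC-CA for 2 (7.34%), and the 4th instar CC-CA (1.94%), prothoracic gland (5.74%), brain (9.79%) and midgut (10.2%) for 1 each. Fat body (11.8%) and Malpighian tubule (8.24%) were highest for none. Of the 28, 20 exceeded the next group at least 4-fold, bounds included. The matching count over all sequence names was not made. In 39 of the 45 genes the second probe had the same highest group. Among the 28, BmorCPR30 and 35 rest on dim epidermis signals, at -5.56 and -4.94. For BmorCPR30 the bound in fat body lay above the epidermis level, and its second probe was detected nowhere.

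**Figure D2:**
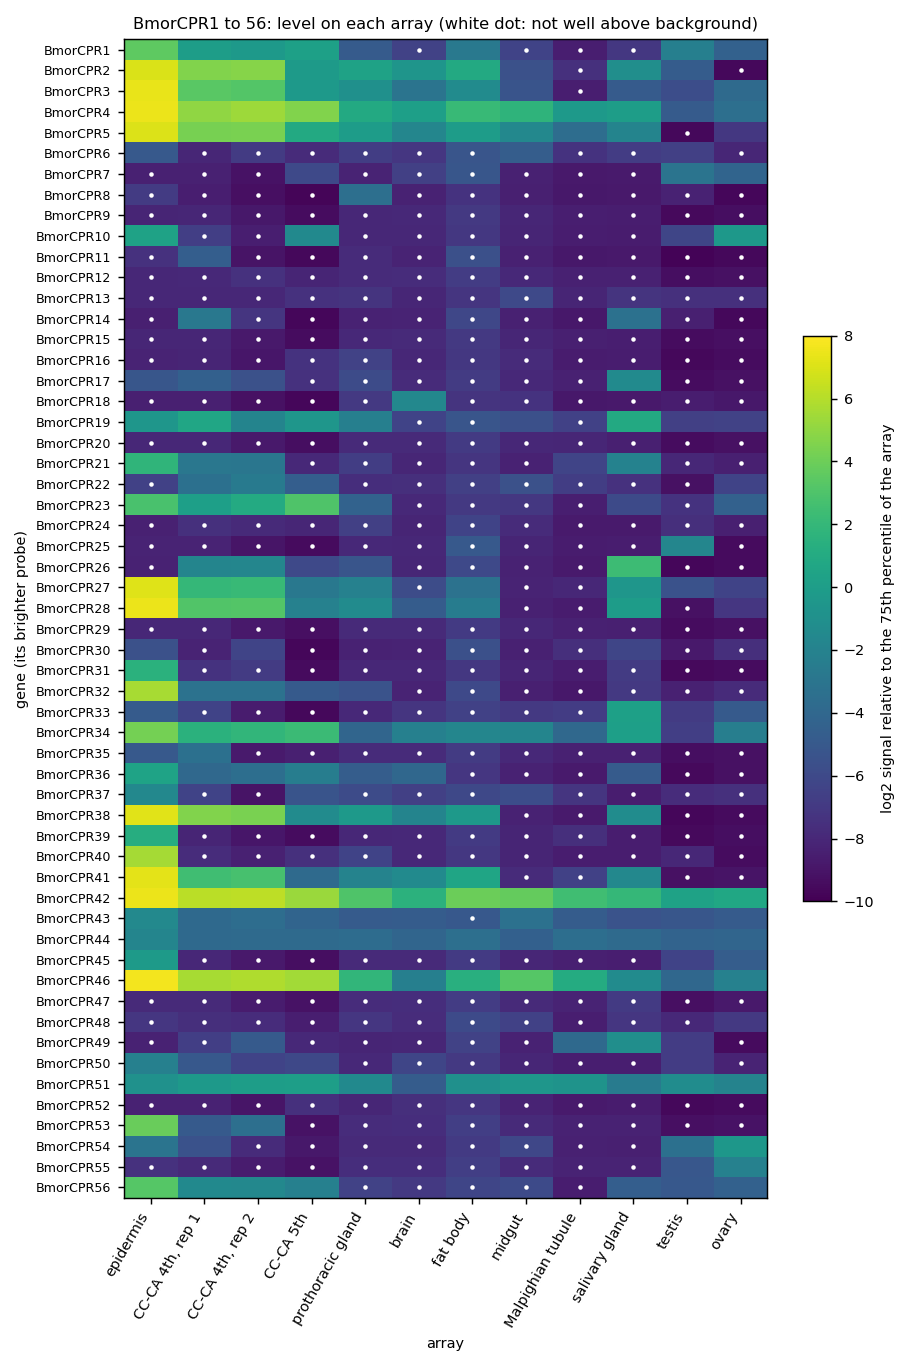
Level of each of the 56 BmorCPR genes (rows) on the 12 arrays (columns), as log2 signal relative to the 75th percentile of the array (colour), with white dots where the probe was not well above background. By group mean, epidermis is highest for 28 genes, although BmorCPR35 is higher on CC-CA replicate 1 than in epidermis. The rows of the 11 genes detected in no group carry white dots throughout, except BmorCPR11 on CC-CA replicate 1.

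The difference from every other group was tested with limma, in a fit of 11 group means whose only residual degree of freedom was that of the CC-CA replicate pair. Each single array was thus assumed to vary like that pair, and the p-values say nothing of the spread between batches of the other tissues. By limma with Benjamini-Hochberg adjustment, 16 genes were above every other group in epidermis by at least 1 on the log2 scale, namely BmorCPR1, 3, 5, 21, 27, 28, 31, 32, 38, 39, 40, 41, 45, 50, 53 and 56 (background 1.61% of the 28621 names tested). BmorCPR18 passed in brain (background 0.576%), BmorCPR26 in salivary gland (background 0.129%) and BmorCPR25 in testis (background 6.25%). Limma called 0 genes in each other group. At an unadjusted p below 0.05 there were 2 in ovary (background of calls 0.122%), 1 each in prothoracic gland (0.0629%) and the 4th instar CC-CA (0.0%), and 0 in fat body (1.16%), midgut (1.22%), Malpighian tubule (0.192%) and the 5th instar CC-CA (0.0%). The shares in brackets are of calls at the stricter adjusted limit, so these unadjusted counts cannot be compared with them. With quantile normalisation, the count in epidermis was 0 in place of 16.

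The 6 genes with the brightest epidermis signal among the 28 were BmorCPR46, 28, 4, 42, 3 and 41. BmorCPR46, also named BMWCP11 for a wing disc cuticle protein, was at 7.66 in epidermis and at 5.67 and 5.84 on the 4th instar CC-CA arrays. It stood at 5.48 in the 5th instar CC-CA, 3.24 in midgut, 1.81 in prothoracic gland, 1.36 in fat body, 1.05 in Malpighian tubule, -1.34 in salivary gland, -2.07 in ovary, -2.21 in brain and -4.02 in testis. It was detected on all 12 arrays, and epidermis exceeded the nearest group, the 4th instar CC-CA, 3.76-fold (limma, largest adjusted p over the 10 contrasts = 0.172).

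BmorCPR42 had the flattest profile of the 6. It was at 7.47 in epidermis, 6.12 and 6.19 in the 4th instar CC-CA, 5.32 in the 5th instar CC-CA, 3.98 in fat body, 3.75 in midgut and 3.04 in prothoracic gland. It was at 2.47 in Malpighian tubule, 1.97 in salivary gland, 1.57 in brain, 0.72 in ovary and 0.36 in testis, with epidermis 2.49-fold above the 4th instar CC-CA (limma, adjusted p = 0.706). Its second probe gave 7.47 in epidermis too, but was not well above background in testis or ovary, so the level in the gonads depends on the probe.

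BmorCPR4, known as larval cuticle protein LCP18, was at 7.48 in epidermis, 4.98 and 5.35 in the 4th instar CC-CA and 4.62 in the 5th instar CC-CA. The other tissues gave 2.11 in fat body, 1.74 in midgut, 0.96 in prothoracic gland, 0.14 in brain, 0.03 in salivary gland, -0.28 in Malpighian tubule, -3.43 in ovary and -4.81 in testis. Epidermis was 4.98-fold above the 4th instar CC-CA (limma, adjusted p = 0.0736).

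The remaining 3 of the 6 fell further outside epidermis. BmorCPR3 was at 7.40 in epidermis, 3.37 and 3.19 in the 4th instar CC-CA, -0.23 in the 5th instar CC-CA, -1.0 in prothoracic gland, -1.30 in fat body and -3.07 in brain. In ovary, salivary gland, midgut and testis it was at -3.81, -4.83, -5.31 and -5.74, and Malpighian tubule was not above background; epidermis was 17.4-fold above the nearest group (limma, adjusted p = 0.00331).

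BmorCPR28 was at 7.51 in epidermis, 3.13 and 3.18 in the 4th instar CC-CA, -0.08 in salivary gland, -1.29 in prothoracic gland, -2.06 in the 5th instar CC-CA, -2.43 in fat body, -4.73 in brain and -7.17 in ovary. It was not above background in midgut, Malpighian tubule or testis, and epidermis led by 20.4-fold (limma, adjusted p = 0.00241). BmorCPR41, the larval cuticle protein Lcp30, was at 7.25 in epidermis, 2.46 and 2.74 in the 4th instar CC-CA, 0.55 in fat body, -1.38 in brain, -1.58 in salivary gland, -1.98 in prothoracic gland and -3.78 in the 5th instar CC-CA. It too was not above background in midgut or Malpighian tubule, nor in testis and ovary, and epidermis led by 25.0-fold (limma, adjusted p = 0.00187).

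These genes differed in how far epidermis exceeded midgut. The difference of epidermis over midgut on the log2 scale was 3.72 for BmorCPR42, 4.42 for BmorCPR46 and 5.75 for BmorCPR4. It was 8.64 for BmorCPR5, 12.55 for BmorCPR2 and 12.72 for BmorCPR3, and at least 13.20, 13.30, 13.35 and 13.61 for BmorCPR27, 38, 41 and 28, which were not detected in midgut. The split was not particular to midgut. In Malpighian tubule the difference was 5.00, 6.61 and 7.77 for BmorCPR42, 46 and 4, 10.61 for BmorCPR5 and at least 13.56 for the rest. Against the 5th instar CC-CA it was 2.16, 2.19 and 2.86 for BmorCPR42, 46 and 4, and 6.10 to 11.02 for the rest. These 10 genes were set side by side after their values were seen, and the difference between them was not tested.

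Other genes were strong in epidermis and nearly silent elsewhere. BmorCPR40 was at 5.57 in epidermis and not above background on any of the 11 other arrays, so epidermis was at least 1543-fold above the nearest bound (limma, adjusted p = 0.000161). BmorCPR31 was at 1.48 and BmorCPR39 at 1.22 in epidermis, with bounds of at least 90.4-fold and 75.5-fold. The second probes of BmorCPR40 and 31 were at 3.26 and -1.55 in epidermis, with bounds of at least 310-fold and 11.1-fold. The size of the lead therefore depends on the probe for these genes. BmorCPR32 was at 5.62 in epidermis, -3.24 and -3.23 in the 4th instar CC-CA, -4.92 in the 5th instar CC-CA and -5.39 in prothoracic gland, a lead of 462-fold. BmorCPR53 was at 3.87 in epidermis and at -4.91 and -3.43 on the 4th instar CC-CA arrays, a lead of 263-fold, and was detected nowhere else. These 5 genes shared an epidermis signal far above that of each other tissue. By the brighter probe, the detected rest, where there was one, lay in CC-CA or prothoracic gland. The second probe of BmorCPR32 was also above background in testis, at -5.08, against -5.72 in prothoracic gland.

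In BmorCPR10 and BmorCPR45, which led in epidermis, ovary came next by the brighter probe. BmorCPR10 was at 0.37 in epidermis, -0.41 in ovary, -1.48 in the 5th instar CC-CA and -6.23 in testis, and was not above background on the other 8 arrays, the 4th instar CC-CA included. Epidermis and ovary therefore differed only 1.72-fold, at different ages. BmorCPR45, the wing cuticle protein gene bmwcp9, was at -0.22 in epidermis, -4.71 in ovary and -6.38 in testis (22.5-fold, limma, adjusted p = 0.00789). Its second probe was above background in epidermis alone, at -2.29, so the level in the gonads depends on the probe.

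Of the 17 genes highest outside epidermis, 8 led the next group at least 4-fold, and 4 of these did so in salivary gland. Such leads were not counted over all sequence names. BmorCPR26 was at 2.35 in salivary gland, -1.82 and -1.75 in the 4th instar CC-CA, -5.22 in prothoracic gland and -6.0 in the 5th instar CC-CA. Epidermis and the other tissues were not above background, and the lead of salivary gland was 17.6-fold (limma, adjusted p = 0.0207). BmorCPR26 thus sat apart from BmorCPR27 and 28, its neighbours on the chromosome, which led in epidermis.

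BmorCPR33 was at 0.22 in salivary gland, -4.83 in epidermis, -4.93 in ovary and -6.87 in testis, a lead of 33.1-fold (limma, adjusted p = 0.205). BmorCPR17 was at -1.37 in salivary gland, -4.47 and -5.55 in the 4th instar CC-CA and -5.22 in epidermis, a lead of 12.4-fold (limma, adjusted p = 0.135). BmorCPR49 was at -1.12 in salivary gland, -3.85 in Malpighian tubule, -6.79 in testis and -4.91 on 1 of the 2 replicate CC-CA arrays, a lead of 6.64-fold (limma, adjusted p = 0.943). Its second probe was at -0.83 in salivary gland and not above background in Malpighian tubule, with a lead of at least 18.3-fold, so the next site and the fold depend on the probe. In each of the 3 genes salivary gland was the highest array by a margin that did not pass the test against all 10 other groups, and each was not above background in the groups not named.

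The other 4 were expressed in brain or gonads. BmorCPR18 was at -1.59 in brain and was not above background on the 11 other arrays, which put brain at least 10.8-fold above them (limma, adjusted p = 0.0103). BmorCPR25 was at -1.71 in testis and likewise undetected on the other arrays, which put testis at least 9.47-fold above them (limma, adjusted p = 0.0146). Neither gene was detected in epidermis, which stood at its background. BmorCPR54 was at -0.44 in ovary, -3.04 in epidermis, -3.39 in testis and -5.45 on 1 of the 2 replicate CC-CA arrays, with ovary 6.06-fold above epidermis. This lead did not pass the test against every other group. By its second probe BmorCPR54 was also detected in midgut, at -5.79, and testis came next at -3.18, with ovary 6.92-fold higher. BmorCPR55, the gene next to it among the family, was at -2.12 in ovary and -5.08 in testis and not above background elsewhere, with ovary at least 7.50-fold above the nearest bound (limma, adjusted p = 0.487).

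The other 9 genes highest outside epidermis had smaller leads or dimmer signals. BmorCPR23 was at 3.05 in the 5th instar CC-CA and 2.84 in epidermis, a factor of 1.15. BmorCPR51 was detected in every group, from -4.78 in brain to 0.09 in the 5th instar CC-CA, and its epidermis level of -0.86 lay inside that range. BmorCPR19 was at 0.91 in salivary gland, but its replicate CC-CA arrays at 0.67 and -1.84 spread more widely than its lead. BmorCPR22, whose brighter probe was not above background in epidermis, led in the 4th instar CC-CA at -3.32 and -2.68, before the 5th instar CC-CA at -4.61 and ovary at -6.37. BmorCPR7 was at -3.08 in testis, -4.20 in ovary and -6.02 in the 5th instar CC-CA. BmorCPR6, 8, 14 and 48 reached -4.69 in midgut, -3.46 in prothoracic gland, -3.31 in salivary gland and -6.99 in ovary, and their highest group rests on signals near background, with the second probe differing for BmorCPR8, 14 and 48. BmorCPR14 was higher, at -2.82, on replicate 1 of the 4th instar CC-CA, but not above background on the other replicate.

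The next comparison set epidermis against the CC-CA of the same day. Most genes of the family that could be tested were higher in epidermis, from 1.32 on the log2 scale in BmorCPR42 to at least 12.09 in BmorCPR40. Of the 56 genes, 37 were tested, 30 were higher in epidermis (limma, adjusted p below 0.05, background 15.5% of the 22629 names tested), 2 were lower (background 12%) and 5 did not pass. The median difference over the 37 was 2.69, also with the 10 genes undetected in one tissue set to their bound, against 0.12 over all names tested. The filter fixed the direction for part of them: 11 were detected in epidermis only and 2 in CC-CA only, while among the 24 detected in both, 21 were higher in epidermis and 3 did not pass, with a median of 2.69.

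BmorCPR40 differed most, at 5.57 in epidermis against -7.74 and -8.37 in CC-CA, both not above background. Epidermis was at least 4355-fold higher (limma log2 difference 13.62, SE 0.46, adjusted p = 1.02e-08). By the same kind of bound, epidermis was higher by at least 253-fold in BmorCPR31, 213-fold in BmorCPR39, 118-fold in BmorCPR10, 78.9-fold in BmorCPR45 and 30.9-fold in BmorCPR37, with limma adjusted p from 5.14e-08 to 0.000126. In BmorCPR32 and 53, measured in both tissues, epidermis was 462-fold and 263-fold higher (limma, log2 8.85, SE 0.43, and 8.04, SE 0.58). These 8 genes have the largest fitted differences among the 30, and the bound of BmorCPR37 is below the measured 33.1-fold of BmorCPR27. The second probe of BmorCPR37 was not above background in any group. For BmorCPR40, 31 and 45 the second probe gave log2 differences of 11.97, 6.56 and 6.05, against 13.62, 8.60 and 8.16 for the brighter probe.

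The 10 genes whose epidermis and midgut levels were given above were measured in both epidermis and CC-CA. BmorCPR27 was 5.05 higher in epidermis on the log2 scale, BmorCPR41 4.65, BmorCPR28 4.35, BmorCPR3 4.12, BmorCPR38 2.69, BmorCPR5 2.68, BmorCPR2 2.35, BmorCPR4 2.32, BmorCPR46 1.91 and BmorCPR42 1.32. The last had an adjusted p of 0.0424 in limma, which rose to 0.737 with quantile normalisation. Each of the 10 was detected on both CC-CA arrays, for example at 2.05 ± 0.11 (SD, n = 2) for BmorCPR27 and 6.16 ± 0.05 (SD, n = 2) for BmorCPR42.

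In 2 genes the order was the opposite. BmorCPR26 was at -1.79 ± 0.05 (SD, n = 2) in CC-CA and not above background in epidermis, so CC-CA was at least 20.4-fold higher (limma log2 difference of epidermis over CC-CA -6.52, SE 0.43, adjusted p = 5.64e-07). BmorCPR22 was at -3.00 ± 0.45 (SD, n = 2) in CC-CA, again with epidermis at background, at least 8.80-fold higher (limma log2 difference of epidermis over CC-CA -3.50, SE 0.46, adjusted p = 0.000118). The second probe of BmorCPR22 was above background in epidermis, at -5.77, with a log2 difference of epidermis over CC-CA of -2.89. Detection in epidermis and the bound therefore depend on the probe for BmorCPR22. BmorCPR51, 17, 19, 35 and 30 did not pass, with log2 differences of epidermis over CC-CA of -0.73, -0.21, 0.02, 1.10 and 1.70. The direction is unsettled for 3 of these. It changed sign for BmorCPR17, to 0.33, without replicate 1 and for BmorCPR19, to -1.24, without replicate 2. For BmorCPR35 it was 3.78 without replicate 1 and -1.57 without replicate 2, and its second probe was lower in epidermis, with a log2 difference of -3.44 (limma, adjusted p = 0.0003). No slide held both an epidermis and a CC-CA array, so tissue and slide cannot be told apart here.

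The last comparison concerned the CC-CA at the 2 ages, the 4th instar on day 2 and the 5th on day 4. Of the 56 genes, 29 were tested. In the 4th instar 13 were higher (limma, adjusted p below 0.05, background 6.94% of the 23343 names tested) and 3 were lower (background 3.56%), while 13 did not pass. The median difference, 4th minus 5th, was 0.63, also with 6 genes at their bound, against 0.03 over all names. Detection in the 4th instar alone fixed the direction for 3 genes and in the 5th alone for 3 more, while of the 23 detected at both stages 10 were higher in the 4th, 1 was lower and 12 did not pass. The comparison shares its 4th instar arrays with the comparison to epidermis, so the results of the pair are not independent.

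Among the falls to the 5th instar were those of 3 genes named for proteins of the larval cuticle, BmorCPR41, 38 and 2. BmorCPR4, which also carries such a name (LCP18), did not pass, with a log2 difference, 4th minus 5th, of 0.55. BmorCPR41 (Lcp30) stood at 2.46 and 2.74 in the 4th instar and -3.78 in the 5th, 83.2-fold lower (limma log2 difference 6.38, SE 0.44, adjusted p = 2.92e-06). BmorCPR38 (LCP22) stood at 4.61 and 4.40 against -1.33, a fold of 57.3, and BmorCPR28 at 3.13 and 3.18 against -2.06, a fold of 37.0. BmorCPR27 was at 1.97 and 2.12 against -2.82, a fold of 29.2, and BmorCPR2 (LCP17) at 4.62 and 4.70 against -0.19, a fold of 28.8. In all 5 the 4th instar replicates lay close together and far above the single 5th instar value.

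BmorCPR21 (BMWCP10) was at -2.84 and -2.91 in the 4th instar and not above background in the 5th, at least 22.9-fold lower. BmorCPR53 was at -4.91 and -3.43 and not above background in the 5th, at least 9.34-fold lower, and BmorCPR26 was at -1.82 and -1.75 against -6.0, a fold of 18.5. Limma's adjusted p for these 3 was 1.42e-05, 0.0001 and 4.8e-05. The remaining 5 genes higher in the 4th instar were BmorCPR3, 5, 32 and 22, by 3.51, 3.42, 1.68 and 1.61 on the log2 scale, and BmorCPR17, which was not above background in the 5th instar, by at least 2.38.

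In the other direction, BmorCPR10 was not above background in the 4th instar and reached -1.48 in the 5th, at least 32.9-fold higher (limma log2 difference -6.09, SE 0.63, adjusted p = 4.39e-05). BmorCPR23 was at 0.19 and 1.04 in the 4th instar against 3.05 in the 5th, 5.41-fold higher (limma log2 difference -2.44, SE 0.49, adjusted p = 0.00554). BmorCPR7 was at -6.02 in the 5th instar and undetected in the 4th, a bound of at least 1.42-fold (limma adjusted p = 0.00245). The call on BmorCPR7 rests on signals near background and was lost when dim signals were set to a floor (adjusted p = 0.584).

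BmorCPR42, 4, 46 and 34 were among the 13 that did not pass between the stages. The log2 difference, 4th minus 5th, was 0.84 for BmorCPR42 (limma, adjusted p = 0.253), 0.55 for BmorCPR4 (adjusted p = 0.496), 0.28 for BmorCPR46 (adjusted p = 0.755) and -0.60 for BmorCPR34 (adjusted p = 0.442). The first 3 of these had the smallest difference of epidermis over midgut among the 10 genes above, set beside each other after the values were seen. All 16 called genes kept their sign within slide 2, which held replicate 2 of the 4th instar and the 5th instar CC-CA. Both of these arrays also made the calls, so the shared sign is no separate check on an effect of slide.

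**Figure D3:**
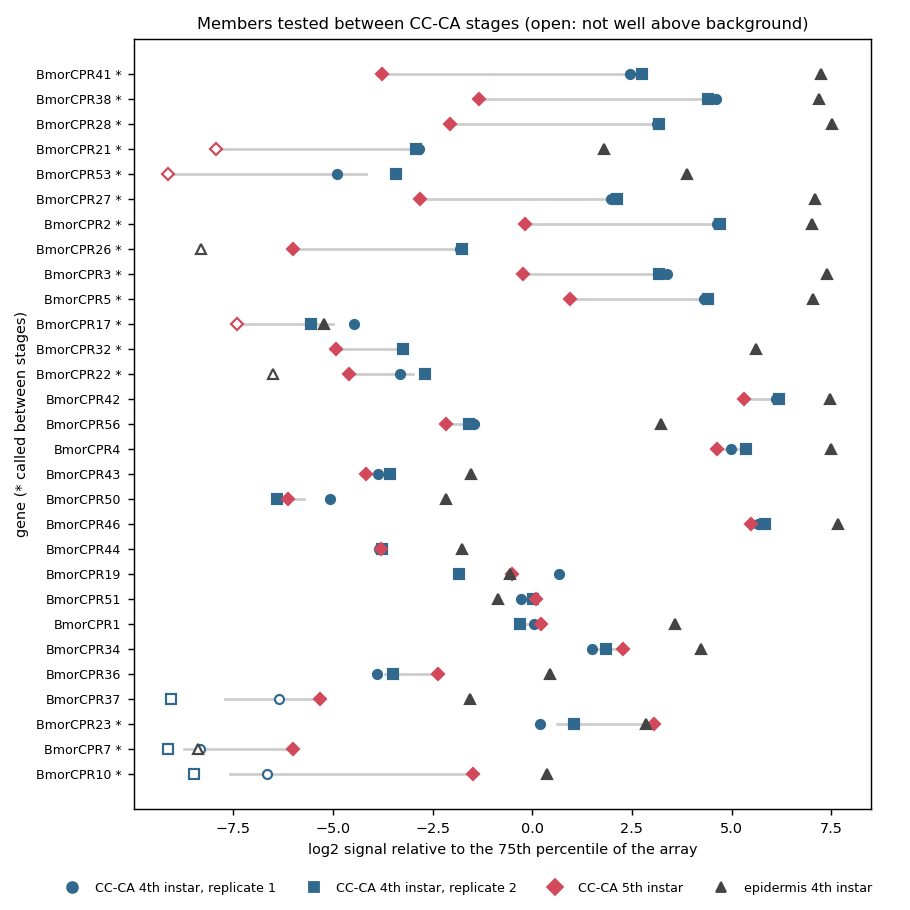
Level of the 29 BmorCPR genes tested between CC-CA stages, as log2 signal relative to the 75th percentile of the array, on the replicate 4th instar arrays (blue circle and square), the 5th instar array (red diamond) and the 4th instar epidermis (triangle), ordered by stage difference. Open symbols were not well above background and asterisks mark the 16 called genes; grey lines join the 4th instar mean to the 5th instar value, the longest being those of BmorCPR41 and BmorCPR10.

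Markers of other tissues moved with the stage as well. Of the 526 epidermis names, 421 were tested between the stages, 209 rose and 22 fell in the 4th instar relative to the 5th, with a median of 1.55 on the log2 scale, and their summed level was 1745 and 1786 in the 4th and 756 in the 5th. A list of 110 non-cuticular salivary gland names, chosen by the same rule, had 58 of 94 tested higher in the 4th instar and 3 lower, with a median of 2.69. Its summed level was 261 and 270 in the 4th instar CC-CA, 72.4 in the 5th and 2729 in salivary gland, and 92, 96 and 83 of its names were detected on these CC-CA arrays. The part of either tissue in the stage differences of the BmorCPR genes was not tested, and in whole dissected organs fewer cells of a type and less RNA per cell cannot be told apart.

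The other cuticular families gave the following counts beside those of BmorCPR1 to 56, with no test between families. Of 92 RR-2 genes, BmorCPR57 to BmorCPR148, 64 were detected and 22 of the 92 were detected in epidermis; epidermis was highest for 15 (23.4% of those detected). Of 29 glycine-rich BmorCPG genes 28 were detected, with epidermis highest for 18 (64.3%), and of 34 BmorCPH genes, the hypothetical cuticular proteins, 29 were detected, with epidermis highest for 8 (27.6%). Of the 8 Tweedle and CPF-type genes, BmorCPT, BmorCPF and BmorCPFL, 8 were detected, with epidermis highest for 4 (50%). RR-1 and glycine-rich genes thus had similar shares highest in epidermis at this age, above those of the RR-2 and BmorCPH genes.

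Between the CC-CA stages, 4 of 28 tested RR-2 genes had their higher level in the 4th instar and 11 in the 5th, with a median of -0.15 on the log2 scale. For BmorCPG it was 9 higher and 3 lower of 18, with a median of 1.71, and for BmorCPH 8 higher and 1 lower of 20, with a median of 1.58. Of the 4 Tweedle and CPF-type genes tested, 3 were higher and 1 lower, with a median of 2.85. The RR-1 counts were 13 higher and 3 lower of 29, and over all names 1621 were higher and 831 lower of 23343.

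Gene order was taken from RefSeq's annotation of assembly ASM3026992v2, in which 52 of the 56 names were found among the synonyms (BmorCPR22, 30, 35 and 50 were not matched). Genes of the family were joined into a run where at most 3 other annotated genes lay between them. The longest run held 16 genes, BmorCPR46, 53, 45, 44, 43, 42, 41, 40, 39, 38, 37, 36, 34, 33, 32 and 31 in this order. Epidermis was highest for 15 of them, and BmorCPR33 was highest in salivary gland. The run thus holds genes detected in every group (BmorCPR34, 42, 44, 46) beside genes detected in epidermis only (BmorCPR31, 39, 40).

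The second run held 9 genes, BmorCPR19 to BmorCPR11 in descending order, and epidermis was highest for none of them, while BmorCPR19, 17 and 14 led in salivary gland, BmorCPR18 in brain, and 5 were detected in no group. BmorCPR2 and 3 lay next to each other and both led in epidermis, and BmorCPR54 and 55 both led in ovary. Over the 31 matched genes detected in at least 3 groups, Pearson's r of the 11 group means had a median of 0.68 in the 71 pairs of a shared run and 0.47 in the 394 other pairs. Most pairs of a shared run came from the longest run, so their median mainly describes that run. Pairs with a gene in common are not independent. These correlations are across groups of the same arrays, and are given as a description.

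**Figure D4:**
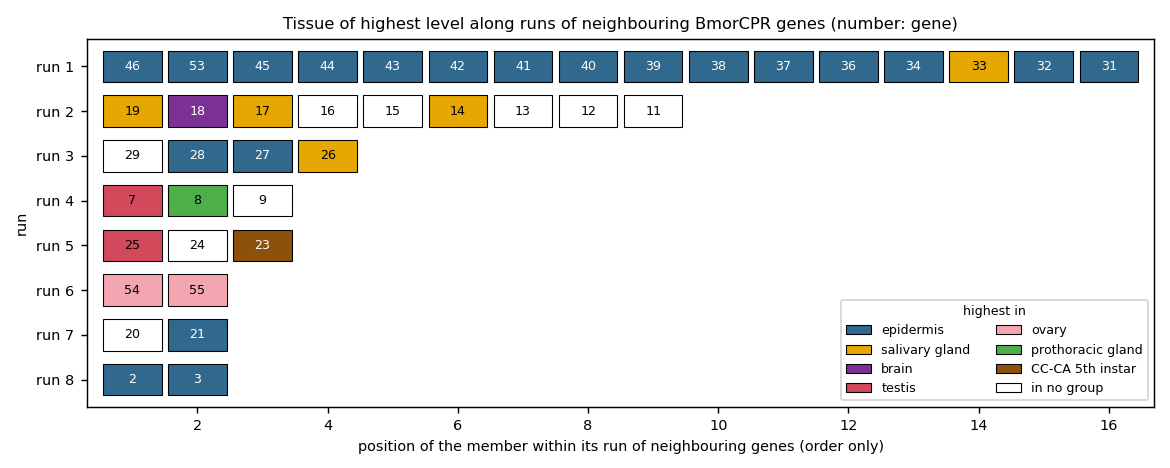
Genes of the BmorCPR1 to 56 family in their order along the runs of neighbouring genes, coloured by the group of highest level, with genes detected in no group marked as none. The run of 16 is epidermis but for BmorCPR33, while the run of 9 has no gene highest in epidermis.

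The 2 probes of a gene mostly gave the same answer. Their flags of being above background agreed in 628 of 672 pairs of gene and array (93.5%). The highest group differed between probes, or the second probe was detected nowhere, in BmorCPR8, 14, 30, 35, 37 and 48. The array can separate members only as far as their sequences differ, and the probe sequences were not used here, so signal shared between close paralogs was not assessed.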

How the data were processed

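Cy3-labelled RNA of 12 samples was hybridised to 1-colour Agilent arrays. Per the file headers, Agilent Feature Extraction 9.5.3.1 produced the deposited intensity of each spot, with background subtracted and dim values replaced by a small positive surrogate, and without scaling between arrays. A deposited value table holds the same intensity divided by 1 constant per array, whose meaning no label or header states; it served as an alternative.

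Control spots were left out, spots of a probe averaged, and log2 of the deposited processed intensity was taken, less the 75th percentile of each array. Of 42564 probes, 42340 had a value on every array. A gene was represented by its probe with the highest mean. The fit used limma 3.58.1 in R 4.3.3 over 11 groups, with a prior worth 7.39 degrees of freedom in the test of the highest group, 10.3 against epidermis and 11.4 between stages. Probes well above background in at least 1 of the groups compared, on each of its arrays, were tested, and p-values were adjusted over all of these probes at 0.05. For a bound, each dim array was set to its own signal or, if larger, to the dimmest signal on it that passed as well above background. On simulated data for epidermis against CC-CA (31130 probes), 37% of probes changed by 2 on the log2 scale were called, 100% of those changed by 4, and 10 of 30930 unchanged ones. All simulated arrays and probes were given the same spread, taken from the CC-CA pair. These rates therefore presuppose that single arrays vary like that pair, and they do not test it. The number of arrays limits the precision.

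The arrays lay on 3 slides of 4: brain, fat body, prothoracic gland and CC-CA replicate 1 on slide 1; midgut, salivary gland, CC-CA replicate 2 and the 5th instar CC-CA on slide 2; testis, ovary, epidermis and Malpighian tubule on slide 3. A slide block left 0 residual degrees of freedom. The members and lists were chosen with earlier results of these data known. Named with values in every group were the 6 genes brightest in epidermis among those highest there, and every gene at least 4-fold highest elsewhere; for each test, the 8 largest calls in each direction. The mean signal per spot was not used here, so normexp (offset 50) was run on the median signal. Promoter and protein sequences were not used here.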

Additional observations from a re-analysis of the deposited data

How the results depend on the processing

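The count of 28 genes highest in epidermis and the counts of calls against CC-CA and between stages stayed within 1.5 times of those reported under every alternative run, and no called value changed sign. The limma counts of genes above every other group moved more. Quantile normalisation, with a prior worth 1.52 degrees of freedom, gave 0 in epidermis in place of 16, 0 in brain in place of 1, 0 in salivary gland in place of 1 and 0 in testis in place of 1. In salivary gland the count was 2 with the deposited value table, 4 with normexp, 4 with a floor under dim signals, 3 with no filter on dim probes and 4 with robust moderation. Testis had 0 with the value table. Ovary went from 0 (2 at an unadjusted p below 0.05) to 1 with the floor and 2 with robust moderation, and prothoracic gland from 0 (1 at an unadjusted p below 0.05) to 1 with robust moderation. The value table moved the median of all probes to -0.18 for epidermis over CC-CA and -0.27 for the 4th over the 5th instar, and the share of stage calls that were higher in the 4th instar from 67.0% to 54.4%; that share was 56.9% with normexp, 58.0% with robust moderation and 80.1% with no filter. Against epidermis, the share higher in epidermis went from 53.7% to 44.0% with the value table. Calls lost with the value table were those of BmorCPR22 (adjusted p = 0.117) and BmorCPR32 (0.0754) between stages and BmorCPR42 (0.103) and BmorCPR33 (0.0522) in epidermis, and as highest in 1 group BmorCPR1 (0.0679), 5 (0.0692), 21 (0.0785), 38 (0.0652), 50 (0.0848) and 25 (0.101). Robust moderation lost BmorCPR33 (0.419), 37 (0.332) and 54 (0.368) against CC-CA, and normexp lost BmorCPR7 (0.138) and 17 (0.117) between stages. Quantile normalisation also lost BmorCPR2, 4, 23 and 46 against CC-CA (0.0519 to 0.193) and BmorCPR17 (0.0759), 22 (0.154) and 32 (0.0987) between stages. With no filter on dim probes BmorCPR22 (0.146) and 32 (0.11) were lost between stages and BmorCPR42 (0.143) against CC-CA. Leaving out a CC-CA replicate leaves no residual degree of freedom and hence no test. Of the differences that did not pass, 3 of 37 against epidermis (BmorCPR17, 19, 35) and 3 of 29 between stages (BmorCPR19, 44, 50) changed sign when 1 replicate was left out; the called ones kept theirs. No paired analysis was possible because the groups compared share only replicate number 1. The cause of these shifts was not tested.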
